A study of Homo sapiens with 9 samples.

Results

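HLA class I and antigen processing genes were measured in RKO, a colorectal cancer cell line with a high level of CpG island methylation, on 9 one-colour Agilent SurePrint G3 Human GE v2 expression arrays. The 9 genes were HLA-B, HLA-C, HLA-E, HLA-F, B2M, TAP1, TAP2, PSMB8 and PSMB9. They were found by their gene names in the array files, where they had 14 probes on 23 spots, out of 50599 probes with 36337 gene names. The arrays fell into 5 conditions. In siCONT, cells received a control siRNA and were then given ethanol as mock treatment (2 arrays). In siUHRF1, cells received siRNA against UHRF1 and mock treatment, with siUHRF1-1 on replicate 1 and siUHRF1-2 on replicate 2, so that the group held 2 siRNAs rather than 2 cultures of the same siRNA. In siCONT + TSA and siUHRF1 + TSA (2 arrays each, with the same siRNAs), the mock treatment was replaced by 300 nM trichostatin A (TSA), an inhibitor of histone deacetylases, for 24 h. The siRNAs acted for 72 h before the drug, and RNA was harvested at 96 h. In 5-aza-dC, cells without siRNA received 1 µM 5-aza-2'-deoxycytidine, an inhibitor of DNA methyltransferases, for 72 h (1 array). UHRF1 is a protein that brings the maintenance DNA methyltransferase to newly replicated DNA. The comparisons address how these genes responded to UHRF1 depletion, to TSA, to both together, and to a direct inhibitor of DNA methylation.

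Class I molecules display peptides from inside the cell to CD8 T cells. The proteasome cuts proteins into peptides, the TAP transporter carries them into the endoplasmic reticulum, and there they are loaded onto a class I heavy chain paired with beta-2-microglobulin. Interferons induce most of these genes through IRF and STAT factors, the NLRC5 activator works through a conserved promoter module, and tumours often carry low levels of the pathway. HLA-B and HLA-C encode classical heavy chains that present peptides to T cells, and HLA-E and HLA-F encode nonclassical heavy chains read by receptors of natural killer cells. B2M encodes the light chain. TAP1 and TAP2 encode the chains of the peptide transporter, and PSMB8 and PSMB9 encode catalytic subunits that replace their constitutive counterparts in the immunoproteasome.

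All values below are log2 signals of a probe after subtraction of the 75th percentile of its array (the "log2 level"), so that a level of 0 is a signal as bright as that percentile. Tests took in the probes that the scanner files mark as well above background throughout at least 1 group, and a probe was called when its Benjamini-Hochberg adjusted p from limma, over all probes tested, was below 0.05. By this filter 13 of the 14 probes, covering all 9 genes, were tested, and each of them was well above background on all 9 arrays. The exception was TAP2 probe A_23_P368067, made against transcript variant 2, which was not well above background on any array and for which no fold change is given. No spot was saturated. Nothing in the labels says whether the replicate arrays came from separate cultures, so p-values measure the spread between these arrays only. Precision is limited by how few arrays there were. In bulk RNA, fewer cells expressing a gene and less RNA per cell cannot be told apart.

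UHRF1 itself separated the groups. Its probe A_23_P208880 had log2 levels of 2.69 and 2.69 on the siCONT arrays, 0.36 and 0.08 on the siUHRF1 arrays, 2.87 and 2.86 on the siCONT + TSA arrays, -0.34 and -0.62 on the siUHRF1 + TSA arrays, and 3.69 with 5-aza-dC. The siUHRF1 arrays were 5.54-fold lower than siCONT (limma, adjusted p = 0.00238), and the siUHRF1 + TSA arrays were 10.2-fold lower than siCONT + TSA (limma, adjusted p = 0.000132). The reference genes ACTB and GAPDH were not called against siCONT in any condition. ACTB was at 0.47 on the log2 scale with TSA (limma, adjusted p = 0.084), a difference of the size of those of HLA-B below, and GAPDH at 0.08 (limma, adjusted p = 0.659). Of 9 markers of colorectal epithelium, 3 to 6 were well above background on each array. KRT8, KRT18 and CDX2 were so on every array, whereas CDH1, VIL1 and LGALS4 were so on none. Of 12 leukocyte markers on the array, 2 to 7 were well above background on each array, the highest number being with 5-aza-dC. CD8A and CD79A were above background on all 9. Of the 5 epithelial marker probes above background on both siCONT arrays, 0 were called with TSA, 3 were called higher under the combination, and 1 higher and 1 lower with 5-aza-dC. Of 2 such leukocyte marker probes, 0 were called in each. Over all probes tested, 6.46% were called higher and 3.95% lower with TSA, and 15.0% and 8.24% under the combination. With 5-aza-dC the shares were 24.1% and 24.8%. These shares also take in probes that were dim in siCONT. The part of the markers in the class I values was not tested.

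The 8 siRNA arrays shared 1 slide and 1 scan. Row 1 of that slide held the mock arrays and row 2 those with TSA, and siCONT, siUHRF1-1 and siUHRF1-2 each had columns of their own, so that the position on the slide and the treatment cannot be told apart. The array of 5-aza-dC came from a different slide and scan, had a 75th percentile of 822 against 245 to 338 on the siRNA arrays, and had no mock control of its own.

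The oligonucleotides decide what each value can stand for, since class I heavy chains are alike in sequence. The array held 3 probes named HLA-B, 2 named HLA-C and 2 named HLA-F. The following 30-base stretches are shown because they carry the same part of the transcript on 3 of these probes, and the capital marks the base at which they can differ.
HLA-B A_33_P3424800: agtcaattcctggaaGttgagagagcaaat
HLA-B A_33_P3379947: agtcaattcctggaaTttgagagagcaaat
HLA-C A_33_P3424803: agtcaattcctggaaGttgagagagcaaat
The HLA-B probes A_33_P3424800 and A_33_P3379947 overlap by 50 bases, with 1 substitution, G37T, counted from 1 at the 5′ end of A_33_P3424800. A_33_P3424803, which the files name HLA-C, overlaps A_33_P3424800 by 41 bases with 0 mismatches, and the files map it to chr6:31321644-31321703 of hg19 on the minus strand, beside the HLA-B probes at chr6:31321663-31321722 and chr6:31321653-31321712. The accessions listed for both of these HLA-B probes belong to HLA-B and HLA-C. These 3 probes therefore share sequence, are not independent measurements, and cannot be assigned to 1 gene with certainty. The other HLA-C probe, A_33_P3330109, maps to chr6:31236617-31236676 and lists HLA-C accessions only.

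The third HLA-B probe, the HLA-F probe on which the siRNAs differed, and the probes of both immunoproteasome subunits and of the light chain are printed whole, since the results below turn on them.
HLA-B A_33_P3399208: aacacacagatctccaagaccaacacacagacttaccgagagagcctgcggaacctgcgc
HLA-F A_33_P3379967: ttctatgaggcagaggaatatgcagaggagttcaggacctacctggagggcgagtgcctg
PSMB8 A_23_P250629: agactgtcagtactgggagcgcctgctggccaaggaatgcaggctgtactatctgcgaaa
PSMB9 A_23_P111000: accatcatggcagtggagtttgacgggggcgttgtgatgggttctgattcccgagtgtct
B2M A_23_P37441: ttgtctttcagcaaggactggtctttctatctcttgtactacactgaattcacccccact
The files give no position for A_33_P3399208. In hg19, the HLA-F probe maps to chr6:29692114-29692173, PSMB9 to chr6:32823918-32823977 and B2M to chr15:45007773-45007832, all on the plus strand. The 60 bases of the PSMB8 probe span 468 bases on the minus strand, chr6:32810023-32810490, and so cross at least 1 intron. The other HLA-F probe, A_33_P3379939, lists accessions of HLA-F and of HLA-H, a class I pseudogene. B2M was measured on 10 spots of each array and every other gene probe on 1 spot.

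Promoters of 8 of the 9 genes were found in a RefSeq table (GRCh38.p14, 250 bases before to 50 after each transcript start), with HLA-E as the gene without an entry and a second start for TAP1 and for PSMB8. Those of 5 genes that hold the core bound by IRF factors, through which interferons act, are shown. The windows of TAP1 and PSMB8, which hold it at 1 of their starts, are not printed. Searched on both strands were AANNGAAA (the core bound by IRF factors, in 22.8% of the 35116 promoters of the table), GGGNNTTCC (a kappaB site, 6.58%), TGACG (the core of the X2 box, 24.6%), CCAAT (34.6%) and TTCNNNGAA (a GAS site, 7.66%). The motifs can overlap one another. Capitals mark the matches in these windows.
HLA-B, chr6:31357226-31357361, minus strand: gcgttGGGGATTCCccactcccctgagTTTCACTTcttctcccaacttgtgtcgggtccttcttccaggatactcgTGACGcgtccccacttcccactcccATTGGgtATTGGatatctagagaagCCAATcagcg
HLA-C, chr6:31272139-31272289, minus strand: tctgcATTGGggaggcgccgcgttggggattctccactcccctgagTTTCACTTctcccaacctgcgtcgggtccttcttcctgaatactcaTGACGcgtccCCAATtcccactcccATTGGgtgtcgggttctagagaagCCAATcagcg
HLA-F, chr6:29723273-29723386, plus strand: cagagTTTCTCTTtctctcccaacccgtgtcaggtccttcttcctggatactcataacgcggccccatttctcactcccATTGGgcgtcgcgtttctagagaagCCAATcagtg
B2M, chr15:44711370-44711477, plus strand: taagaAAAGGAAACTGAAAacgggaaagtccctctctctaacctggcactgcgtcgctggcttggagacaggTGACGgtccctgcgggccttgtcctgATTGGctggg
TAP2, chr6:32838765-32838806, minus strand: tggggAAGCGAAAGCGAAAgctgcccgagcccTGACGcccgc
The IRF core was present in 1 copy in HLA-B, HLA-C and HLA-F and in 2 copies in B2M, TAP2, 1 of the TAP1 starts and 1 of the PSMB8 starts, and it was not found in the PSMB9 window. The other motifs were not common to all. TGACG was not found in HLA-F, at either TAP1 start or at 1 of the PSMB8 starts, CCAAT was not found in TAP2, at either PSMB8 start or at 1 of the TAP1 starts, and GGGNNTTCC was found only in HLA-B, B2M and 1 of the PSMB8 starts, while the PSMB9 window held TGACG and CCAAT. TTCNNNGAA was found only at 1 of the TAP1 starts and 1 of the PSMB8 starts, in windows that are not printed. The 10 windows held 11 to 26 CpG dinucleotides in 300 bases, against a median of 14 over all promoters. The starts of TAP1 and PSMB9 lie 487 bases apart and point away from each other. A match is a run of letters and does not show that a factor binds there.

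**Figure D1:**
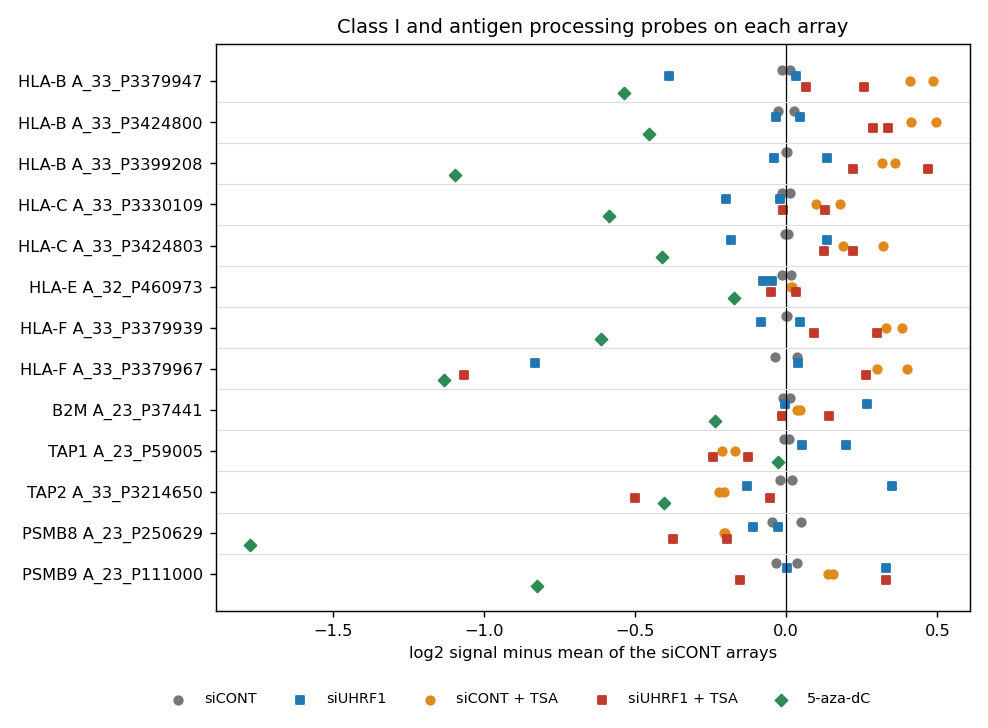
Log2 level of each of the 13 tested probes minus its mean over the siCONT arrays, 1 point per array, coloured by condition (2 arrays per siRNA group, 1 array of 5-aza-dC). PSMB8 on the 5-aza-dC array lies at -1.77, and the siCONT + TSA arrays of the 3 HLA-B probes lie to the right of their siCONT arrays.

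Knockdown of UHRF1 alone was followed by no call among these genes. Of the 13 probes 0 were called, 6 lay above and 7 below siCONT, and 0 had an unadjusted p below 0.05. Over all 23726 probes tested, 0.518% were called higher and 0.0379% lower. The log2 differences of the 13 probes ran from -0.40 to 0.17, with a median of -0.02, against -0.004 over all probes. For HLA-B probe A_33_P3424800 the difference was 0.01 with a 95% interval of -0.22 to 0.23, and for B2M it was 0.13 with an interval of -0.16 to 0.43. For HLA-F probe A_33_P3379967 the interval was wide, from -1.51 to 0.72, and its siUHRF1 arrays differed by 0.87. A call that is missing here does not show equal levels, since the siUHRF1 arrays differed from each other by a median of 0.18 over these probes and 0.26 over all probes, against 0.03 and 0.07 for siCONT.

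With TSA, 1 of the 13 probes was called higher and none lower. The probe was HLA-B A_33_P3424800, with log2 levels of 5.16 and 5.21 in siCONT and 5.68 and 5.59 in siCONT + TSA. Both TSA arrays lay above both siCONT arrays, and the difference was 0.45 ± 0.09 (SE, n = 2 arrays per group), a 1.37-fold rise (limma, adjusted p = 0.0329). A call of 1 in 13 is near the background, since 6.46% of all probes were called higher and 3.95% lower. With any 1 of the siCONT or siCONT + TSA arrays left out, 0 of the 13 probes were called, and 0 were called with normexp, quantile normalization, spike-in scaling, no filter on dim probes or the replicate block. Under quantile normalization and spike-in scaling the difference of this probe was 0.27 and 0.26.

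The overlapping HLA-B probe A_33_P3379947 had levels of 5.41 and 5.38 in siCONT and 5.88 and 5.80 in siCONT + TSA, a difference of 0.45 (limma, adjusted p = 0.123). The third HLA-B probe, A_33_P3399208, had levels of 2.91 and 2.91 in siCONT and 3.27 and 3.23 in siCONT + TSA, a difference of 0.34 (limma, adjusted p = 0.127). HLA-F probe A_33_P3379939 had levels of 6.20 and 6.19 in siCONT and 6.58 and 6.53 in siCONT + TSA, a difference of 0.36 (limma, adjusted p = 0.091). In each of these 3 cases the groups did not overlap, although the adjusted p missed the threshold.

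The other HLA-F probe, A_33_P3379967, had levels of 0.87 and 0.94 in siCONT and 1.31 and 1.21 in siCONT + TSA, a difference of 0.35 with a wide interval of -0.77 to 1.46 (limma, adjusted p = 0.657). HLA-C gave 0.14 and 0.25, PSMB9 0.15, B2M 0.04 and HLA-E 0.02. The transporter and the second immunoproteasome subunit had negative values. TAP1 had levels of 4.35 and 4.37 in siCONT and 4.19 and 4.15 in siCONT + TSA, TAP2 2.85 and 2.89 against 2.67 and 2.65, and PSMB8 1.93 and 2.02 against 1.77 and 1.77. Their differences were -0.19, -0.21 and -0.20, with adjusted p-values from limma of 0.257, 0.533 and 0.251. For B2M and HLA-E, the intervals of the difference ran from -0.25 to 0.33 and from -0.20 to 0.23. In all, 9 of the 13 probes (3 of HLA-B, 2 of HLA-C, 2 of HLA-F, B2M and PSMB9) had both TSA arrays above both siCONT arrays, as did 45.1% of all probes, and 3 (TAP1, TAP2 and PSMB8) had both below, as did 30.5% of all probes. HLA-E was the probe whose groups overlapped. The median difference of the 13 probes was 0.15, against 0.07 over all probes. With spike-in scaling, which moved the median of all probes from 0.07 to -0.13, the median of the 13 probes was -0.05 and 6 of them lay above siCONT in place of 10. With normexp background correction it was also -0.05, with 6 above.

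Under UHRF1 depletion with TSA, none of the 13 probes was called against siCONT in the fit by group, while 15.0% of all probes were called higher and 8.24% lower. HLA-B A_33_P3424800 had levels of 5.52 and 5.47, both above siCONT, and a difference of 0.31 (limma, adjusted p = 0.0551). HLA-B A_33_P3399208 had levels of 3.38 and 3.13 and a difference of 0.34 (limma, adjusted p = 0.0868). PSMB8 had levels of 1.60 and 1.78, both below siCONT, and a difference of -0.28 (limma, adjusted p = 0.0983). These 3 probes had an unadjusted p below 0.05. The log2 differences of all 13 ran from -0.40 to 0.34 with a median of 0.06, against 0.05 over all probes, and 8 lay above and 5 below siCONT.

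The comparisons of the combination with each treatment alone likewise gave no call in the fit by group. Against siCONT + TSA, 3 of the 13 probes lay above and 10 below, none was called, and none had an unadjusted p below 0.05. Among all probes 2.96% were called higher and 0.573% lower. The lowest value was that of HLA-F A_33_P3379967, at -0.75 with an interval of -1.86 to 0.36. HLA-B A_33_P3379947 followed with -0.29, at 5.46 and 5.65 against 5.88 and 5.80 under TSA alone. For TAP1 the difference was 0.01 (interval -0.23 to 0.25). Against siUHRF1, adding TSA gave 0 calls among the 13 probes and 3 with an unadjusted p below 0.05, where 9.96% of all probes were called higher and 5.52% lower. TAP1 had levels of 4.56 and 4.41 in siUHRF1 and 4.23 and 4.12 in siUHRF1 + TSA, a difference of -0.31 (limma, adjusted p = 0.0853), and HLA-B A_33_P3424800 a difference of 0.31 (limma, adjusted p = 0.0713). TAP2 had levels of 3.22 and 2.82 with siUHRF1-1 and 2.74 and 2.37 with siUHRF1-2, without and with TSA, and a difference of -0.39 (limma, adjusted p = 0.245). The effect of UHRF1 depletion with TSA minus its effect without TSA was called for 0 of the 13 probes, with 0 at an unadjusted p below 0.05 and 2 of them above and 11 below 0, with 0.358% of all probes called higher and 0.0211% lower. Its median over the 13 probes was -0.11, against -0.001 over all probes. These comparisons share arrays and their values are not independent of each other.

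The absence of calls depends on how the siRNAs are treated. The fit by group counts the difference between siUHRF1-1 and siUHRF1-2 as spread between replicates. In a limma fit chosen after the data had been seen, the siRNA was a term for the siUHRF1 and siUHRF1 + TSA arrays, so that TSA was compared within each siRNA and the values hold for these siRNAs only. The differences were unaltered, and the standard errors of all 13 probes were smaller in the comparison with siUHRF1. Against siUHRF1, adding TSA then gave 4 of the 13 probes called higher and 2 lower, where 20.2% of all probes were called higher and 13.3% lower. TAP1 and TAP2 were called lower, by 0.31 and 0.39 on the log2 scale (adjusted p = 0.0177 and 0.0105). The 3 HLA-B probes and HLA-F A_33_P3379939 were called higher, with differences of 0.34 for A_33_P3379947, 0.31 for A_33_P3424800, 0.30 for A_33_P3399208 and 0.21 for HLA-F (adjusted p = 0.0325, 0.0296, 0.0204 and 0.05).

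In the same fit, TSA against siCONT gave 4 probes called higher, which were again the 3 of HLA-B and HLA-F A_33_P3379939, and TAP2 called lower, where 17.5% of all probes were called higher and 11.0% lower. The combination against siCONT gave HLA-B A_33_P3424800 and A_33_P3399208 higher and TAP2 and PSMB8 lower, with 24.5% and 17.0% of all probes. Against siCONT + TSA it gave HLA-F A_33_P3379967 lower, with 6.63% of all probes called higher and 4.64% lower. The 2 arrays of that HLA-F probe differed, since siUHRF1-1 + TSA, at 1.17, lay near the 1.31 and 1.21 of siCONT + TSA and siUHRF1-2 + TSA was at -0.16. UHRF1 depletion alone gave 0 calls, with 1.13% of all probes called higher and 0.278% lower, as did the difference between its effects with and without TSA, with 0.434% and 0.0295%. With spike-in scaling as well, no probe of the 9 genes was called higher in these comparisons, and with normexp none was called in either direction.

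**Figure D2:**
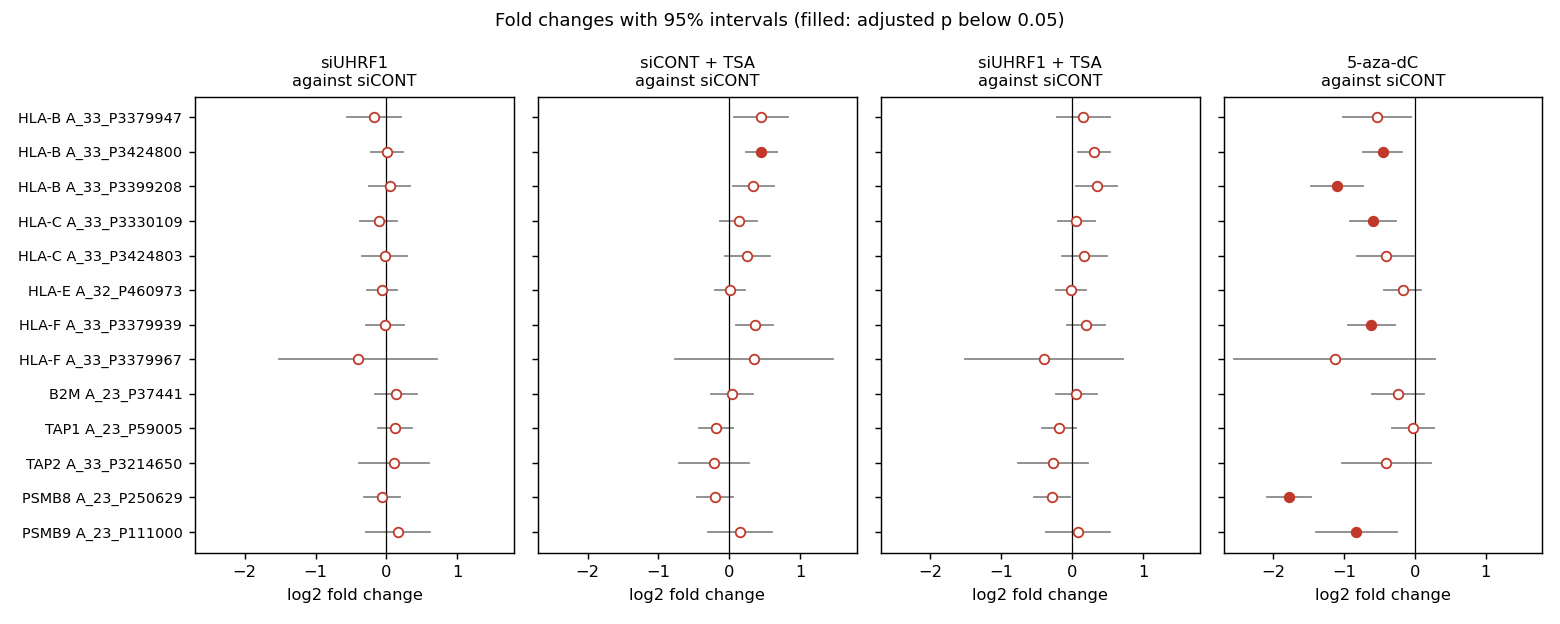
Log2 difference of each tested probe in the comparisons with siCONT, with 95% confidence intervals from limma; filled points have an adjusted p below 0.05. The intervals are from the fit by group. HLA-B A_33_P3424800 is the 1 filled point under TSA and PSMB8 the lowest under 5-aza-dC.

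The siRNAs against UHRF1 differed from each other on probes of HLA-F, TAP2 and PSMB9. They were compared over both drug states with limma, in a comparison added after the data had been seen. For HLA-F A_33_P3379967, the arrays of siUHRF1-1 had levels of 0.95 and 1.17 (mock and TSA) and those of siUHRF1-2 had 0.08 and -0.16, against 0.87 and 0.94 in siCONT. The siUHRF1-1 arrays thus lay near siCONT and the siUHRF1-2 arrays below it, and siUHRF1-1 was 1.10 higher on the log2 scale (95% interval 0.72 to 1.48, adjusted p = 0.0154). This probe was called with siUHRF1-1 at 2.15-fold the level with siUHRF1-2. The other HLA-F probe differed by 0.17 (adjusted p = 0.166), so the probes of this gene disagreed.

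TAP2 had levels of 3.22 and 2.82 with siUHRF1-1 and 2.74 and 2.37 with siUHRF1-2, against 2.85 and 2.89 in siCONT, a difference of 0.46 (interval 0.28 to 0.65, limma adjusted p = 0.0204). PSMB9 had 2.48 and 2.48 with siUHRF1-1 and 2.15 and 2.00 with siUHRF1-2, against 2.18 and 2.11 in siCONT, a difference of 0.41 (interval 0.18 to 0.64, limma adjusted p = 0.0434). B2M had 6.42 and 6.29 against 6.15 and 6.14, a difference of 0.21 that was not called (limma, adjusted p = 0.0926). In the opposite direction, HLA-B A_33_P3379947 had 5.01 and 5.46 with siUHRF1-1 and 5.43 and 5.65 with siUHRF1-2, a difference of -0.31 (limma, adjusted p = 0.0631), while the HLA-B probe that overlaps it, A_33_P3424800, gave -0.02 (adjusted p = 0.916). Of the 13 probes, 3 were called higher with siUHRF1-1 and 0 lower, where 5.74% of all probes were called higher and 7.92% lower. The median difference was 0.13 for the 13 probes and -0.08 for all. The number of called probes fell to 0 without siUHRF1 replicate 1, with normexp and with no filter on dim probes, and was 1 or 2 with any other siRNA array left out. The mock array of siUHRF1-1 had the highest 75th percentile of the siRNA arrays, at 338, and its part in these values was not tested. Each siRNA was hybridised at its own column of the slide, and the siRNA and the column cannot be told apart.

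**Figure D3:**
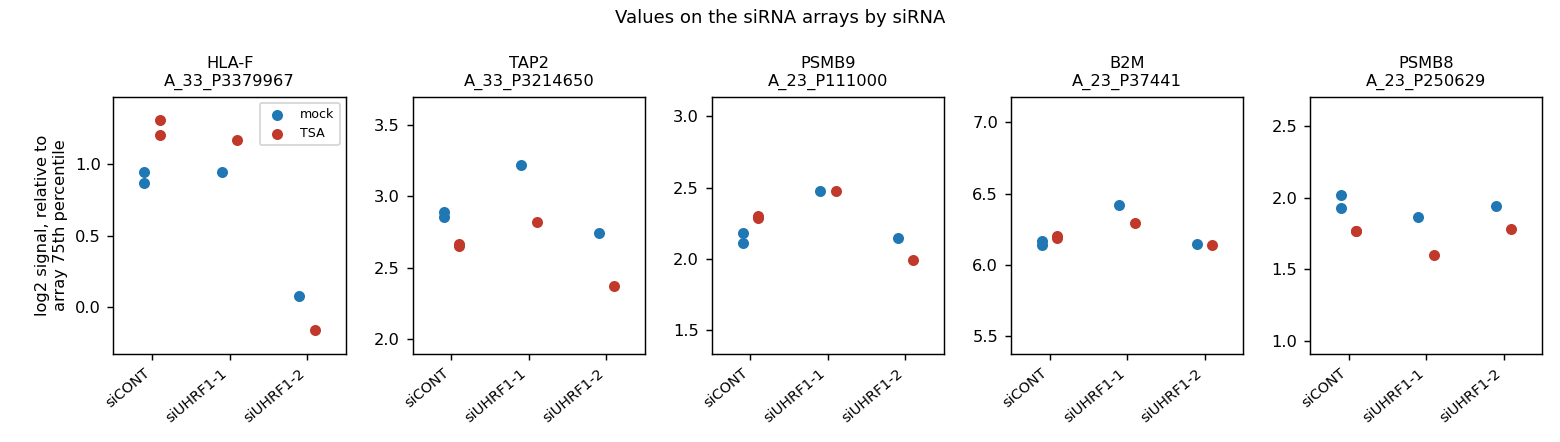
Log2 level (vertical axis, relative to the 75th percentile of the array) of 5 probes by siRNA, 1 point per array, with mock arrays in blue and TSA arrays in red. HLA-F A_33_P3379967 lies lower with siUHRF1-2 than with siUHRF1-1, and TAP2 and PSMB9 do so in both drug states, whereas B2M and PSMB8 were not called.

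With 5-aza-dC, all 13 probes lay below siCONT and 6 of them were called lower, with none called higher. Over the 27171 probes tested with this array, 24.8% were called lower and 24.1% higher, and the median was 0.01 against -0.54 for the 13 probes. This condition has 1 array, which the fit assumed to vary like the other groups, and it differs from siCONT in siRNA, slide, scan and time of harvest as well as in drug. These cannot be told apart.

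PSMB8 had the largest fall of the called probes. Its level was 0.20 with 5-aza-dC, against 1.93 and 2.02 in siCONT and 1.60 to 1.95 on the other siRNA arrays, a fall of 3.42-fold (log2 difference -1.77, interval -2.09 to -1.46, limma adjusted p = 0.000196). With 5-aza-dC the level thus lay below every siRNA array for this gene. The share of all probes with this order was not counted. PSMB9, the other immunoproteasome subunit, had a level of 1.32 against 2.18 and 2.11, a fall of 1.77-fold (limma, adjusted p = 0.0294). HLA-B A_33_P3399208 had a level of 1.82 against 2.91 and 2.91, a fall of 2.14-fold (limma, adjusted p = 0.0021).

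The other called heavy chain probes fell by less. HLA-F A_33_P3379939 had a level of 5.58 against 6.20 and 6.19, a fall of 1.53-fold (limma, adjusted p = 0.0125). HLA-C A_33_P3330109, the probe that lists HLA-C alone, had a level of 6.82 against 7.42 and 7.39, a fall of 1.5-fold (limma, adjusted p = 0.0137). HLA-B A_33_P3424800 had a level of 4.73 against 5.16 and 5.21, a fall of 1.37-fold (limma, adjusted p = 0.019). On each of these probes, chosen here as called lower, the level with 5-aza-dC was below all 8 siRNA arrays. Here too the share of all probes with this order was not counted, and the order is a description only.

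The values of the 7 probes without a call were -0.54 for HLA-B A_33_P3379947 (limma, adjusted p = 0.0646), -0.41 for HLA-C A_33_P3424803, -1.13 for HLA-F A_33_P3379967 (interval -2.55 to 0.29), -0.40 for TAP2, -0.24 for B2M (interval -0.61 to 0.13), -0.17 for HLA-E and -0.03 for TAP1. TAP1, at 4.33 against 4.35 and 4.37, had the smallest difference, with an interval of -0.33 to 0.27 and an adjusted p of 0.865 from limma. Its start lies beside that of PSMB9, and the difference between these genes was not tested. PSMB8 and HLA-B A_33_P3399208 were called lower under all 20 alternative settings. The number of called probes fell without either siCONT array and was 2 with normexp. It was 13 with spike-in scaling, which placed the median of all probes at -1.29 and that of the 13 at -1.83. With that scaling most of all probes tested were called lower.

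The rest of the class I pathway was read from lists of genes, with counts given as probes from the fit by group. The shares called over all probes, against which these counts can be read, were 6.46% higher and 3.95% lower with TSA, 15.0% and 8.24% under the combination, and 24.1% and 24.8% with 5-aza-dC. The directions with 5-aza-dC depend on the scaling. With spike-in scaling, which moved the median of all probes to -1.29, no probe of the peptide loading, proteasome or transcription factor lists and 1 of interferon signalling was called higher. With that scaling most of all probes tested were called lower, by counts given in the closing section. Of 9 probes from 6 other class I and class I-like heavy chain genes, 0 were called with TSA (limma, 3 at an unadjusted p below 0.05), 2 were called lower under the combination and 3 lower with 5-aza-dC, with medians of 0.02, -0.13 and -0.08. With 5-aza-dC HLA-G fell by 0.49 on the log2 scale (limma, adjusted p = 0.0372), MR1, which presents microbial metabolites, by 1.55 (0.00143), and HFE, a regulator of iron uptake, by 1.7 (0.0115). MICB, a stress ligand of natural killer cells, fell by 0.74 under the combination (0.00468).

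Peptide loading and trimming genes had 19 probes tested, with 0 called under TSA, 1 higher and 4 lower under the combination, and 3 higher and 9 lower with 5-aza-dC. In all, 5 of 19 were called under the combination, close to the share over all probes for both directions together. By direction, 15.0% of all probes were called higher and 8.24% lower, against 1 and 4 of the 19. The medians were -0.09, -0.15 and -0.48. TAPBP, or tapasin, which bridges TAP and the heavy chain, fell by 0.51 under the combination (limma, adjusted p = 0.00946), by 0.46 when UHRF1 depletion was added to TSA (0.0441), and by 1.06 with 5-aza-dC (0.00062), all on probe A_23_P365719. Of its 4 probes this was the 1 called in the first 2 comparisons, and 3 were called lower with 5-aza-dC. TAPBPL, a tapasin relative that edits peptides, was at least 2.26-fold lower under the combination and at least 4.26-fold lower with 5-aza-dC, where its probe was not well above background. ERAP2, which trims peptides, fell by 0.56 and 1.03 (0.0227 and 0.00284), and NRD1, a peptidase, rose by 0.61 and 0.78 (0.00639 and 0.00221), the latter turned by spike-in scaling to -0.51, called lower (limma, adjusted p = 0.0213). With normexp, no probe of this list was called under the combination. For TAPBP A_23_P365719, 15 of 28 alternatives lost the call when UHRF1 depletion was added to TSA, with differences from -0.48 to -0.23.

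Subunits of the constitutive proteasome were called higher and not lower in both TSA conditions. Of 17 probes tested, all lay above siCONT in these conditions, 5 were called higher with TSA and 6 under the combination, and none lower, with medians of 0.41 and 0.31. PSMA3, PSMB1, PSMB3 and PSMA6 rose by 0.65, 0.63, 0.60 and 0.57 with TSA. With normexp and with spike-in scaling, 0 of the 17 were called with TSA. The subunits that PSMB8 and PSMB9 replace are PSMB5 and PSMB6. They were not called with TSA, at 0.24 and 0.18, nor with 5-aza-dC, at -0.04 and 0.10. With 5-aza-dC, 5 probes of this list were called higher and 1 lower out of 18, against 0 and 17 with spike-in scaling, which turned PSMB3, PSMA4 and PSMA6 to called lower. With that scaling most of all probes were called lower. PSMB7, replaced by PSMB10, fell by 0.96 with 5-aza-dC (limma, adjusted p = 0.00207). Among 5 probes of other immunoproteasome and activator genes, none was called with TSA. Under the combination 1 was called higher, PSME3 at 0.34 (limma, adjusted p = 0.0476), a call that 17 of 28 alternatives lost. With 5-aza-dC, POMP, the assembly factor, rose by 1.42, PSME3 rose by 0.41, which spike-in scaling turned to -0.89, called lower (limma, adjusted p = 0.0105), and PSME1, a subunit of the interferon-induced activator, fell by 0.77. PSMB10 was at 0.08 (limma, adjusted p = 0.789).

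Transcription factors of class I genes had 19 probes tested, with 1 higher and 2 lower under TSA, 1 and 2 under the combination, and 4 and 5 with 5-aza-dC, which was near the share over all probes with 5-aza-dC and below it under the combination. With spike-in scaling the counts with 5-aza-dC were 0 higher and 16 lower, where most of all probes were called lower. NLRC5, the class I activator, had 2 probes, both below siCONT in these conditions, of which 1 was called. A_23_P26583, well above background on both siCONT arrays and 5 arrays in all, was called lower with TSA (levels of -4.22 and -3.86 against -3.27 and -3.36 in siCONT, limma, adjusted p = 0.0315), under the combination (-3.88 and -4.08, 0.0228) and with 5-aza-dC (-4.96, 0.000961). A_32_P416583, well above background on all 9 arrays, was not called, at -0.17, -0.40 and -0.62, and its siCONT arrays lay apart from each other by more than these, at -2.04 and -1.01. CIITA, the class II activator, and IRF2 were not well above background on any array. RFXAP, a subunit of the RFX complex on the X box, fell by 0.93 with TSA (limma, adjusted p = 0.0163), by 0.90 under the combination (0.00722) and by 1.23 with 5-aza-dC (0.00226). CREB1, which binds the X2 box, fell by 1.29 with 5-aza-dC (limma, adjusted p = 0.00116). RFXANK, another RFX subunit, rose by 0.52 under the combination (0.0492), NFYB fell by 0.51 when TSA was added to UHRF1 depletion (0.0422), and NFYC rose by 0.74 with 5-aza-dC (0.00782), where spike-in scaling gave -0.56. NFYB and NFYC are subunits of NF-Y. With 5-aza-dC RFXANK was at -0.65. Over 28 alternatives, 12 lost the RFXANK call under the combination and 15 lost the NFYB call. IRF1, the interferon-induced activator of several of these genes, was at 0.01 and -0.01 with TSA and the combination, neither called, and rose by 0.74 with 5-aza-dC (0.00689), a direction that spike-in scaling turned to -0.56.

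Of 8 interferon ligand genes on the array, 7 were not well above background on any array. Of 18 probes for interferon receptors and signalling genes, 0 were called with TSA (limma, 3 at an unadjusted p below 0.05), 3 higher and 2 lower under the combination, and 4 higher and 3 lower with 5-aza-dC, near the share over all probes under the combination and below it with 5-aza-dC. With spike-in scaling the counts with 5-aza-dC were 1 higher and 17 lower, where most of all probes were called lower. IRF9, a DNA-binding subunit of the complex activated by type I interferon, rose by 0.72 under the combination and by 0.85 when UHRF1 depletion was added to TSA. SOCS1, an inhibitor of the pathway, rose by 0.99 under the combination and by 2.25 with 5-aza-dC. The probes called lower under the combination were those of receptor chains. IFNAR1, of the type I receptor, fell by 0.47 (limma, adjusted p = 0.0276), and IFNGR1, of the interferon gamma receptor, fell by 0.45 (0.0204) and by 0.44 against siUHRF1 (0.0314). Over 28 alternatives for the combination against siCONT, 11 lost the call of IFNAR1, 10 that of IFNGR1, 10 that of SOCS1 and 5 that of IRF9. TYK2, a kinase of the type I receptor, fell by 1.05 with 5-aza-dC (limma, adjusted p = 0.00313), and IRF7, which drives interferon genes, rose by 0.77 (0.0297), turned by spike-in scaling to -0.53, called lower. IFNAR2, a chain of the type I interferon receptor, fell by 0.50 with 5-aza-dC (limma, adjusted p = 0.0148).

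Interferon-stimulated genes outside antigen processing had 35 probes on the array, of which 17 were well above background on both siCONT arrays. Of these 17, 3 were called higher and 0 lower with TSA, 4 higher and 2 lower under the combination, and 2 higher and 8 lower with 5-aza-dC. Another 5 were tested through a treated or siUHRF1 group (6 with 5-aza-dC), and 13 were not tested (12 with 5-aza-dC). IFI6 rose by 1.92 with TSA and by 2.21 under the combination, and was at -0.545 with 5-aza-dC. IFIT1 and MX1, which act against viruses, rose by 1.10 and 0.57 with TSA. IFI27 was at least 9.72-fold higher under the combination than in siCONT, where its probe was not well above background, and at least 4.98-fold higher with 5-aza-dC. GBP2, also below background in siCONT, was at least 1.82-fold higher with TSA and at least 2.03-fold higher under the combination. Over 27 alternatives the lowest log2 differences of GBP2 were 0.94 and 0.48, with the call lost in 8 and 5. For IFI27 under the combination the lowest was 1.44, with the call lost in 1. MX2 rose by 1.57 under the combination, where 8 of 28 alternatives lost the call and the lowest difference was 0.66. IFIT3 was at least 2.26-fold higher under the combination than with TSA alone. Of 27 alternatives, 12 lost this call and 2, both with normexp, turned the direction to -0.14. OAS2 was tested against siCONT through the 5-aza-dC array alone. It was at least 1.26-fold higher there than in siCONT. Normexp turned this difference to -0.62 on the log2 scale, so that no direction is drawn from it. IFIT2 and ISG20 fell by 2.46 and 2.36 with 5-aza-dC.

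Class II antigen presentation genes, which use RFX and NF-Y factors as class I genes do, had 22 probes on the array. Of these, 5 were well above background on both siCONT arrays, and 3 of the 5 were called higher with TSA, 5 under the combination and 1 lower with 5-aza-dC. A further 6 probes (8 with 5-aza-dC) were tested only because they were above background in another group, so that their calls are no evidence of how the list as a whole moved, and 11 (9 with 5-aza-dC) were not tested. HLA-DMA, which helps to load class II molecules, rose by 1.5 with TSA and 2.65 under the combination, and HLA-DPA1 by 1.04 and 1.97. HLA-DMB rose by 2.99 and 2.98 and fell by 1.25 with 5-aza-dC. Over 28 alternatives, 11 lost the call of HLA-DMA with TSA, 8 that of HLA-DPA1 and 2 that of HLA-DMB. Under the combination 1 lost the call of each gene, and the lowest differences were 1.21, 1.01 and 2.095. HLA-DPB1 was not well above background in siCONT on its probe A_23_P258769. This probe was at least 3.85-fold higher with TSA, at least 8.60-fold higher under the combination and at least 2.11-fold higher with 5-aza-dC. Its lowest log2 differences over the alternatives were 1.27, 1.51 and 0.03. These bounds for HLA-DPB1 therefore hold for the main processing only. Another of its probes, A_33_P3271635, was called lower with 5-aza-dC (limma, adjusted p = 0.0264), between levels of -7.04 and of -6.44 and -6.35 that were all below background, so that no fold or direction is drawn from it. HLA-DOA probe A_33_P3278968 was well above background on the 5-aza-dC array alone, so that it was tested only through that group. Its level lay near background and normexp turned the sign of its difference, so that no fold or direction is drawn from it. With UHRF1 depletion alone, 0 probes were called in each of these class I, proteasome, interferon and class II lists.

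**Figure D4:**
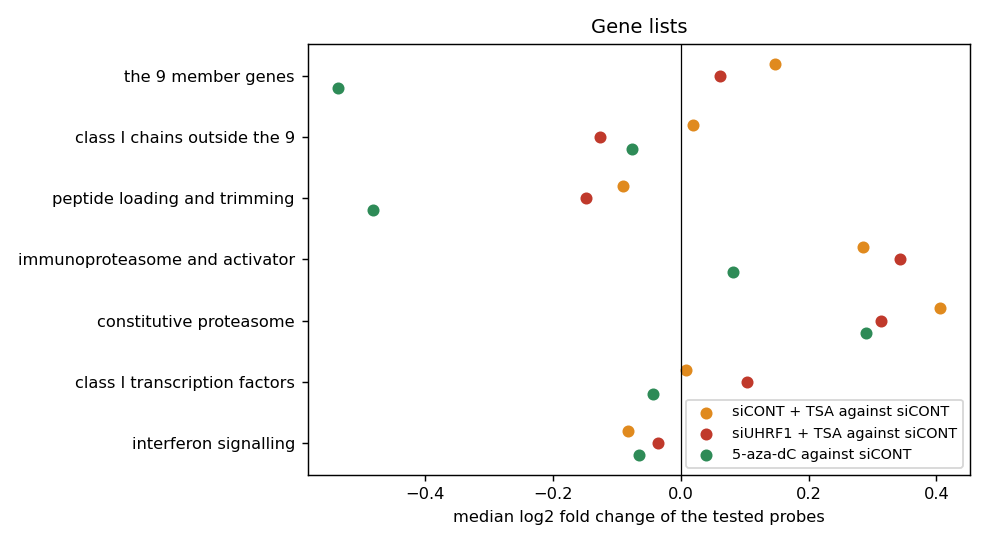
Median log2 difference (horizontal axis) of the tested probes of the gene lists drawn, with TSA, under the combination and with 5-aza-dC, each against siCONT. List probes below background in a group were put at their bound. The interferon-stimulated and class II lists are not drawn. The 9 genes lie at -0.54 and peptide loading and trimming genes at -0.48 with 5-aza-dC, and the constitutive proteasome at 0.41 with TSA.

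For each of the 9 genes, the genes with the most similar changes were sought over the 6 treated siRNA arrays among 10740 gene names, by the root mean square difference of log2 changes from the siCONT mean. HLA-B, read by A_33_P3379947, was nearest to MICA, a class I-like stress ligand, at 0.042, with a median of 0.378 over all candidates. MICA was at -0.38 and -0.07 on the siUHRF1 arrays, at 0.48 and 0.42 with TSA, and at 0.05 and 0.28 with both. The 9 genes themselves were left out as candidates. HLA-F was nearest to MRPS18C, a mitochondrial ribosomal protein, at 0.019, HLA-C to DNM1L, which divides mitochondria, at 0.033, and HLA-E to TUFM, a mitochondrial elongation factor, at 0.024. TAP1 was nearest to KATNA1, a microtubule-severing enzyme, at 0.033, and TAP2 to SDHD, a subunit of succinate dehydrogenase, at 0.057. PSMB8 was nearest to VKORC1L1, at 0.036, PSMB9 to PCID2, at 0.065, and B2M to LRRC42, at 0.045. These 6 arrays share 1 slide, and the nearness is a description.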

How the data were processed

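Total RNA of RKO cells was labelled with Cy3 and hybridised to 9 Agilent arrays. The authors deposited spot intensity values from Feature Extraction 10.7.3.1 (file headers), which subtracts background and spatial trend. These intensities carry no normalization between arrays, and a deposited table of values repeats them after rounding. Processed signals were converted to log2 and shifted by each array's 75th percentile. Outlier spots were left out and spots of a probe averaged. Linear models in limma 3.58.1 (R 4.3.3) used the 8 siRNA arrays, and all 9 where 5-aza-dC was compared, with Benjamini-Hochberg adjustment over all probes tested. The procedure was tested on simulated data. A fold against a group with no array above background is a lower bound: the dim group took, per array, the higher of the probe's signal and the smallest signal of any probe above background.

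Every probe of the 9 genes is named, and from each other list and comparison names were taken among the 4 called genes with the largest change, each gene read by its brightest probe, with UHRF1, ACTB and GAPDH. Genes of this kind in the marker lists are given as counts. A fit with the siRNA against UHRF1 as a term was added after the data had been seen. NLRC5, CIITA, IRF2, HLA-DPB1 A_33_P3271635, PSMB5, PSMB6 and PSMB10 were named after their values were seen. The 3 nearest genes were sought for each gene, and the first of them is given. The members and lists were chosen with earlier results of these data known. Some genes of the class I heavy chain and interferon signalling lists are not reported here, and were left out of the counts of those lists. Alternatives are given in the closing section.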

Additional observations from a re-analysis of the deposited data

Results flagged for a closer look

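The effect of UHRF1 depletion on IFI27, an interferon-stimulated gene, was called as different with and without TSA (probe A_24_P270460, limma interaction, adjusted p = 0.0312), with a fitted difference of 2.06 on the log2 scale. Its log2 levels were -4.60 and -4.23 in siCONT, -3.62 and -3.79 in siUHRF1, -3.78 and -3.78 in siCONT + TSA, and -1.16 and -0.87 in siUHRF1 + TSA. It was not well above background in siCONT, so the effect without TSA is not measured and 2.06 is not a fixed size. Over 24 alternatives the difference ran from 0.73 to 2.24 and the adjusted p from 0.0286 to 0.959, and 17 of them lost the call. None of the 9 class I and antigen processing genes met this test.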

How the results depend on the processing

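Over the alternatives, 2468 values of single probes of the 9 genes kept their side of the threshold, 55 lost a call, 129 gained a call and 0 called values reversed. A value without a call could change sign and still keep its side. With TSA, B2M went from 0.04 to -0.159 at its lowest and HLA-E from 0.017 to -0.21. UHRF1 depletion alone and the difference between its effects gave 0 called probes of these genes throughout. The share of all probes called moved with the setting too. For TSA against siCONT, the siRNA term raised it from 6.46% to 17.5% higher and from 3.95% to 11.0% lower. Such shares are not given for most settings. The counts of these genes below therefore show only how their calls depend on the processing. With the siRNA against UHRF1 as a term, chosen after seeing the data, the number was 5 for TSA against siCONT (1), 4 for the combination against siCONT (0), 1 for it against siCONT + TSA (0) and 6 for it against siUHRF1 (0). In this order the same term gave 0, 0, 0 and 0 with normexp, 6, 5, 1 and 4 with quantile normalization, 5, 6, 1 and 6 with the shift by the median, and 2, 3, 1 and 2 with spike-in scaling. Under all other alternatives UHRF1 depletion added to TSA gave 0. Without the siRNA term, for TSA against siCONT (1 probe called), the number was 0 with normexp, quantile normalization, spike-in scaling, no filter, the replicate block, and an unadjusted p with a change over 2-fold, 2 with a trended and robust prior, 4 at an unadjusted p, 7 with only the groups compared, 7 by the methods' t-test unadjusted and 3 after adjustment, and 0 to 2 with 1 array left out. For the combination against siCONT (0), it was 1 with a stricter filter, 2 with the trended prior, 3 at an unadjusted p, 1 by the methods' t-test unadjusted, and 0 to 1 with 1 array left out. For the combination against siUHRF1 (0), it was 2, 3 and 1 under the last 3 of these choices, and 0 to 3 with 1 array left out, the 3 being without siUHRF1 replicate 2. For 5-aza-dC (6), it was 2 with normexp, 13 with spike-in scaling, 10 with only the groups compared, 2 at an unadjusted p with a change over 2-fold, and 2 to 8 with 1 array left out. For siUHRF1-1 against siUHRF1-2 (3), it was 0 with normexp and no filter, 6 with quantile normalization, spike-in scaling and the trended prior, 7 at an unadjusted p, 1 with a change over 2-fold as well, and 0 to 2 with 1 array left out. The replicate numbers paired only the siUHRF1 groups, which share siRNAs (correlation of deviations 0.56, against -0.06 to 0.08 elsewhere); with the replicate block, which also shifts the siCONT arrays that the numbers did not pair, 0 of these probes were called in the 6 comparisons in which it was run, and the 1 call under TSA was the call lost. It was not run for siUHRF1-1 against siUHRF1-2. With normexp, IFIT3, CD3D and CSF1R reversed to -0.14, -0.15 and -0.17 (combination against siCONT + TSA, with and without the siRNA term), and HLA-DOA, OAS2 and CSF1R to -0.66, -0.62 and -0.81 (5-aza-dC). With spike-in scaling, which moved the all-probe median with 5-aza-dC to -1.29 (2304 probes higher, 19461 lower, against 6554 and 6727), NFYC, IRF1, PSMB3, PSMA4, PSMA6 and UHRF1 reversed to -0.56, -0.56, -0.40, -0.69, -0.80 and -0.30, and PSME3, IRF7, CSF1R and NRD1 to -0.89, -0.53, -0.28 and -0.51. It also moved called probes with TSA from 1533 higher and 936 lower to 529 and 1176. The cause was not tested. Slide and scan were not fitted as blocks, since the siRNA arrays share 1 of each.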
